A study of Arabidopsis thaliana with 9 samples.

Results

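Chromatin assembly factor 1 (CAF-1) and the MSI family of histone-binding proteins were followed in sperm cells and vegetative nuclei of growing Arabidopsis thaliana pollen tubes. The 7 genes were found by their locus codes in a table of 32833 genes: FAS1 (AT1G65470), FAS2 (AT5G64630), MSI1 (AT5G58230), MSI2 (AT2G16780), MSI3 (AT4G35050), MSI4 (AT2G19520) and MSI5 (AT4G29730). The family was chosen by the counts themselves, because MSI3 was high in sperm and absent from nuclei, so levels in sperm against nuclei are given as a description with no test. RNA was measured in 9 libraries, 3 in each of 3 groups. Semi in vivo sperm cells came from tubes that grew for 2 h on pollinated Col-0 pistils, emasculated 16 h before, and for a further 4 h with the cut pistil lying on medium. In vitro sperm cells and vegetative nuclei came from tubes that grew on germination medium, for 6 h. All pollen carried MGH3p::MGH3-GFP, a green fusion driven by the promoter of a sperm histone H3 gene, and ACT11p::H2B-mRFP, a red fusion driven by an actin promoter, in a genotype labelled WT, and the fractions were separated by fluorescence-activated sorting. The labels do not say whether replicates were separate plants or cultures, so a p-value here measures the spread between libraries, which may be technical.

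CAF-1 is a histone chaperone that places H3-H4 dimers on newly copied DNA, where it is recruited by the sliding clamp PCNA. In Arabidopsis its subunits are FAS1, the large subunit, FAS2, the middle subunit, and MSI1, the small WD40-repeat subunit that binds histone H4. MSI1 is also a subunit of Polycomb repressive complex 2 (PRC2) and binds the retinoblastoma protein RBR1, while MSI4, known as FVE, acts with histone deacetylases and in the autonomous flowering pathway, and MSI5 is its close paralogue. MSI2 and MSI3 are a second pair of paralogues, with fewer known functions. The sperm pair arises from a division of the generative cell before pollen is shed, and the vegetative cell that forms the tube does not divide.

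Library totals were 24005795 to 41118337 counts in semi in vivo sperm, 14470065 to 40525238 in in vitro sperm and 13768069 to 35157304 in vegetative nuclei. The summed level of 8 sperm markers was 12344 to 15095 CPM (counts scaled to a library total of 1000000) in semi in vivo sperm, 12664 to 15640 CPM in in vitro sperm and 263 to 480 CPM in vegetative nuclei. That of 8 vegetative cell markers was 34.3 to 62.8 CPM in semi in vivo sperm, 43.1 to 69.1 CPM in in vitro sperm and 25286 to 39859 CPM in nuclei, and none of these markers was at 0 in a whole group. PCR11 and GEX1 made up most of the sperm marker sum in sperm. The sperm marker GEX2 did not set the groups apart, with at most 0.417 CPM in a sperm library and 0.110 CPM in nucleus library 3. The 9 pistil markers together had 0.0304 to 3.53 CPM in semi in vivo sperm, 0.654 to 16.9 CPM in in vitro sperm and 0.0366 to 5.26 CPM in nuclei, with NTT, HEC3 and SHP2 at 0 in nuclei. The 5 photosynthesis genes had at most 2.503 CPM in any library. In vitro sperm library 2 stood apart, where 14203 genes reached 1 CPM, while 7462 to 9867 did so in the remaining 5 sperm libraries. Nucleus library 1 had the fewest such genes, 6299, against 8405 and 10086 in libraries 3 and 2. The 10 most abundant genes took 42.8% to 49.3% of each sperm library and 19.3% to 20.9% of each nucleus library.

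Transcripts of all 7 genes were counted in sperm of both kinds, with MSI3, FAS2 and MSI2 at the highest CPM and MSI5 at the lowest. FAS2, the middle subunit of CAF-1, had 48.9, 39.3 and 40.9 CPM in semi in vivo sperm, 47.3, 52.6 and 44.1 CPM in in vitro sperm, and 0, 4.12 and 0 CPM in vegetative nuclei. The sperm groups overlapped, and all 145 nucleus counts lay in library 2, below every sperm library. FAS1, the large subunit, whose animal counterpart binds PCNA, had 3.21, 5.96 and 8.88 CPM in semi in vivo sperm, 4.98, 4.27 and 2.94 CPM in in vitro sperm, and 4.58, 0 and 0 CPM in vegetative nuclei. FAS1 had at most 8.88 CPM in sperm, and its 63 counts in nucleus library 1 gave a level inside its sperm range, which began at 2.94 CPM. MSI1, the small subunit, had 10.9, 12.4 and 12.3 CPM in semi in vivo sperm, 10.0, 13.3 and 6.46 CPM in in vitro sperm, and no counts in any nucleus library. The sperm groups overlapped for FAS1 and MSI1 too.

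MSI3 had the highest CPM of the 7 genes in every sperm library. It had 64.7, 67.9 and 61.4 CPM in semi in vivo sperm, 67.7, 76.2 and 77.0 CPM in in vitro sperm, and no counts in nuclei. Its paralogue MSI2 had 27.2, 28.4 and 29.4 CPM in semi in vivo sperm, 16.1, 29.0 and 32.6 CPM in in vitro sperm, and 0, 0 and 2.78 CPM in vegetative nuclei. The sperm groups overlapped for both genes, and the 76 nucleus counts of MSI2 all lay in library 3. MSI4, the FVE protein of the flowering pathway, had 4.37, 3.77 and 3.04 CPM in semi in vivo sperm, 6.01, 4.79 and 2.73 CPM in in vitro sperm, and no counts in nuclei. MSI5 was near its detection limit, with 4, 19 and 0 counts in semi in vivo sperm, 27, 49 and 0 counts in in vitro sperm and 0, 1 and 0 counts in nuclei. Library 3 of each sperm group thus held no MSI5 count, which allows up to 3 counts, or 0.0913 CPM in the semi in vivo library and 0.0818 CPM in the in vitro one.

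**Figure D1:**
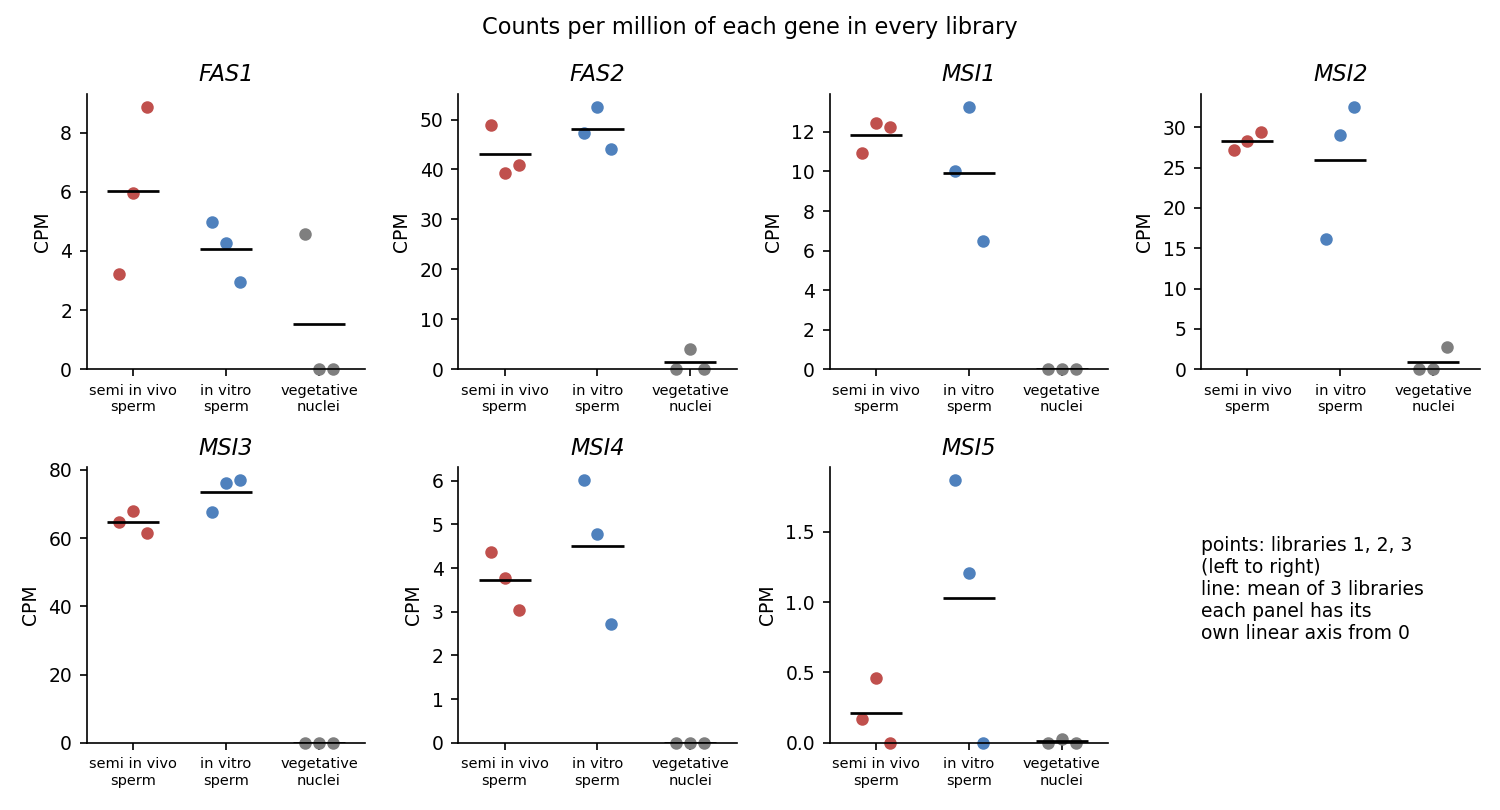
CPM (linear axis from 0, a separate one for each gene) in semi in vivo sperm, in vitro sperm and vegetative nuclei, with points for libraries 1 to 3 and a line at the mean of 3. MSI1, MSI3 and MSI4 lie at 0 in all nucleus libraries, while MSI2, FAS1 and FAS2 each have counts in 1 nucleus library, and FAS1 alone reaches its sperm range there.

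Because MSI2 and MSI3 are close paralogues, their sequences bear on how far their counts can be separated. The reference genome used here is TAIR10.1 with its RefSeq annotation, whereas the counts were made on TAIR10 and the deposited table holds no coordinates, so positions are matched by locus code. Of 424 aligned residues, 344 (81.1%) were identical between the proteins translated from the MSI2 and MSI3 coding sequences, and the coding sequences were identical at 82.6% of aligned bases. MSI4 and MSI5 shared 383 of 511 aligned residues, MSI1 was 53.8% identical to MSI2 and 50.7% to MSI3, and MSI4 and MSI5 were 26.6% to 29.1% identical to the other 3 MSI proteins. The longest run of bases without a difference was 31 between MSI2 and MSI3 and 41 between MSI4 and MSI5. The stretch around the longest MSI2 and MSI3 run is shown because it is where a short read could least be told apart, with capitals at the 6 bases that differ. It lies within 1 coding exon of each gene on the minus strand, at chr2:7282963-7283040 for MSI2 and chr4:16684087-16684164 for MSI3.
MSI2: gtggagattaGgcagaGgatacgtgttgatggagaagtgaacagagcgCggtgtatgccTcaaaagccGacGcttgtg
MSI3: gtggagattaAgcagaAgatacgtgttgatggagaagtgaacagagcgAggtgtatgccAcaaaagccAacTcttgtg

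No stretch of 50 bases of coding sequence of FAS1, FAS2, MSI1, MSI2, MSI4 or MSI5 was found in the transcripts of any other gene. In MSI3, 81 of 1226 such stretches (6.61%) were also found in a neighbouring gene, bZIP19 (AT4G35040), a zinc-deficiency transcription factor gene whose end overlaps that of MSI3 on the opposite strand by 302 bases, 130 of them in the MSI3 coding sequence. The sources used here give neither the read length nor the handling of reads that fit several places, and Smart-seq2 does not keep the strand, so reads from the overlap cannot be assigned to one gene or the other. bZIP19 had 40, 134 and 77 counts in semi in vivo sperm, 0, 100 and 52 in in vitro sperm and 0, 122 and 105 in vegetative nuclei. MSI3 was thus at 0 in nucleus libraries 2 and 3, where bZIP19 was counted, and had 979 counts in in vitro sperm library 1, where bZIP19 was at 0. MSI2 and MSI1 overlapped bZIP23 (AT2G16770) and FHIT (AT5G58240) outside their coding sequences, by 126 and 132 bases on the opposite strand. FHIT had 0 counts in all 3 semi in vivo sperm libraries, where MSI1 had 262, 511 and 403, while MSI2 and bZIP23 were both highest among nuclei in library 3, with 76 and 55 counts, and in nucleus library 2 MSI2 had 0 and bZIP23 had 6. The part of the overlapping genes in the MSI2 nucleus counts was not tested.

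Levels of different genes were compared as CPM per kb of coding length, since a longer transcript gives more reads. The coding sequences ran from 1248 bases in MSI2 to 2448 bases in FAS1. On this scale MSI3 averaged 54.2 CPM per kb over the 6 sperm libraries, ahead of FAS2 with 31.1, MSI2 with 21.7, MSI1 with 8.54, MSI4 with 2.70, FAS1 with 2.06 and MSI5 with 0.422. MSI3 exceeded FAS2 by 1.74-fold, FAS2 exceeded MSI2 by 1.43-fold, MSI2 exceeded MSI1 by 2.54-fold and MSI1 exceeded MSI4 by 3.16-fold, each in 6 of 6 libraries with ranges that did not overlap. MSI4 and FAS1 were neighbours that did not differ beyond their spread: MSI4 was higher in 5 of 6 libraries, with 1.79 to 3.95 CPM per kb against 1.202 to 3.63 for FAS1. FAS1 was above MSI5 in 6 of 6 libraries, but their ranges overlapped. Among the 3 CAF-1 subunits, the order per kb was FAS2, MSI1 and FAS1 in all 6 sperm libraries.

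**Figure D2:**
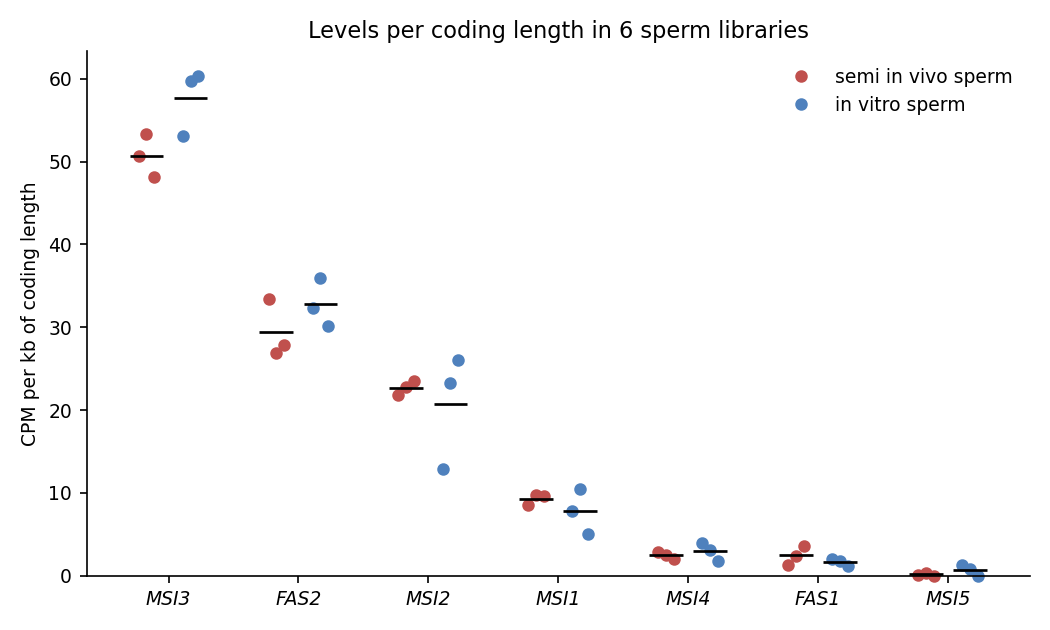
CPM per kb of coding length (linear axis from 0) of the 7 genes in the 3 semi in vivo and 3 in vitro sperm libraries, in order of their mean over all 6, with lines at group means. MSI3 averages 54.2, FAS2 31.1 and MSI2 21.7 with no overlap between neighbours, while MSI4 and FAS1 overlap at 2.70 and 2.06.

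Set against all 27432 protein-coding genes with a coding length, MSI3 was exceeded per kb by 1280 genes (4.67%) in semi in vivo sperm and 1212 (4.42%) in in vitro sperm. FAS2 was exceeded by 6.75% of genes in semi in vivo sperm and by 6.33% in in vitro sperm. MSI2 was exceeded by 7.74% of genes in semi in vivo sperm and by 8.13% in in vitro sperm. MSI1 followed, exceeded by 12.0% of genes in semi in vivo sperm and 13.2% in in vitro sperm. MSI4 and FAS1 were both exceeded by 19.7% of genes in semi in vivo sperm, but in in vitro sperm FAS1 was exceeded by 27.1%. MSI5 was exceeded by 56.5% of genes in semi in vivo sperm and 46.0% in in vitro sperm. The genes also differed in how steady they were over the 6 sperm libraries: the highest CPM was 1.25 times the lowest for MSI3 and 1.34 times for FAS2, against 2.02 for MSI2, 2.06 for MSI1, 2.21 for MSI4 and 3.02 for FAS1.

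Relative to nuclei, the sperm levels are given as folds of mean CPM, and as lower bounds against 3 counts over the 3 nucleus libraries (0.0393 CPM) for the genes with no nucleus count. Smart-seq2 counts PCR copies and not molecules, so bounds and intervals cover counting error only. MSI3, the gene that chose the family, was at least 1643-fold higher in semi in vivo sperm and at least 1871-fold higher in in vitro sperm than in nuclei. For MSI1 the bounds were 302-fold for semi in vivo sperm and 252-fold for in vitro sperm, and for MSI4 they were 94.8-fold for semi in vivo sperm and 115-fold for in vitro sperm. FAS2 was 31.3-fold higher in semi in vivo sperm and 34.9-fold higher in in vitro sperm, while MSI2 was 30.6-fold higher in semi in vivo sperm and 27.9-fold higher in in vitro sperm. These ratios rest on 1 nucleus library each, library 2 for FAS2 and library 3 for MSI2, and without it the nucleus count was 0. FAS1 had the smallest ratios, 3.94 for semi in vivo sperm and 2.66 for in vitro sperm over nuclei, which rest in the same way on nucleus library 1. MSI5 gave a counting ratio of 17.9 for semi in vivo sperm (95% interval 2.91 to 737) and 63.2 for in vitro sperm (95% interval 11.01 to 2529), from a single nucleus count.

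Between in vitro sperm and nuclei, 4314 of the 14061 genes tested (30.7%) were higher in sperm and 2006 (14.3%) lower by edgeR's quasi-likelihood test at a Benjamini-Hochberg adjusted p below 0.05, 44.9% in all. The split depended on the scaling, with 3401 higher and 2477 lower when unfiltered genes set the TMM factors. Only 6 of the 7 genes passed the expression filter there, MSI5 being the exception, and no count of the family is read from a contrast that was used to choose it. Of the 3472 genes with a mean of at least 10 CPM in in vitro sperm, 131 (3.77%) had no counts in any nucleus library, and MSI3 is one of them, while MSI1 had a mean of 9.92 CPM. Counts in a single nucleus library, as for MSI2, FAS1 and FAS2, were found for 449 of the 1395 genes (32.2%) with a nucleus mean in the range of those 3 genes, 0.927 to 1.53 CPM. A whole cell was here set against a nucleus without cytoplasm, and in bulk samples fewer cells of a type and less RNA per cell cannot be told apart.

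Passage through the pistil was the comparison that the choice of genes did not use. None of the 7 genes passed the test between semi in vivo sperm and in vitro sperm: all 7 were tested and 0 were called by edgeR's quasi-likelihood test or by DESeq2, with 0 at an unadjusted p below 0.05 by edgeR. The background by edgeR was 89 of 14131 genes called (0.630%), 76 of them higher (0.538%) and 13 lower (0.0920%). DESeq2 called 340 genes (2.41%), and 1138 (8.05%) had an unadjusted edgeR p below 0.05. MSI3 averaged 64.6 ± 3.28 CPM in semi in vivo sperm and 73.6 ± 5.15 CPM in in vitro sperm (SD, n = 3 each), with a fitted log2 fold change of 0.00 (SE 0.19, 95% interval -0.40 to 0.40). FAS2 averaged 43.1 ± 5.16 CPM in semi in vivo sperm and 48.0 ± 4.27 CPM in in vitro sperm, with a log2 fold change of 0.04 (SE 0.21, 95% interval -0.40 to 0.47). For these 2 genes the intervals lie within 0.5 log2 units of 0, and the edgeR adjusted p was 1.00 for both. The fitted values use TMM scaling, which left all genes with a median log2 fold change of -0.17, and MSI3 was lower in semi in vivo sperm by mean CPM but level in the fit.

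The other intervals were wider. FAS1 averaged 6.02 ± 2.84 CPM in semi in vivo sperm and 4.06 ± 1.03 CPM in in vitro sperm, a log2 fold change of 0.78 (SE 0.47, 95% interval -0.21 to 1.77, edgeR adjusted p = 0.815). MSI1 averaged 11.9 ± 0.83 CPM in semi in vivo sperm and 9.92 ± 3.41 CPM in in vitro sperm, a log2 fold change of 0.47 (SE 0.32, 95% interval -0.21 to 1.15, edgeR adjusted p = 0.910). For MSI2 the averages were 28.3 ± 1.07 CPM in semi in vivo sperm and 25.9 ± 8.66 CPM in in vitro sperm, with a log2 fold change of 0.32 (SE 0.27, 95% interval -0.25 to 0.88, edgeR adjusted p = 0.990). The spread of MSI1 and MSI2 was larger in in vitro sperm, where MSI1 was low in library 3 and MSI2 in library 1. MSI4 had a log2 fold change of -0.08 (95% interval -1.10 to 0.94), and MSI5 of -2.09 (95% interval -6.71 to 2.54), which allows differences of MSI5 in either direction. Its counts varied widely between libraries, with 27 in in vitro library 1, the shallowest sperm library, and 0 in in vitro library 3 and semi in vivo library 3. With in vitro sperm library 2 and semi in vivo sperm library 3 left out, the log2 fold changes were 0.32 for FAS1, 0.61 for MSI1, 0.28 for MSI2 and -0.03 for MSI3, and again 0 of 7 genes were called.

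**Figure D3:**
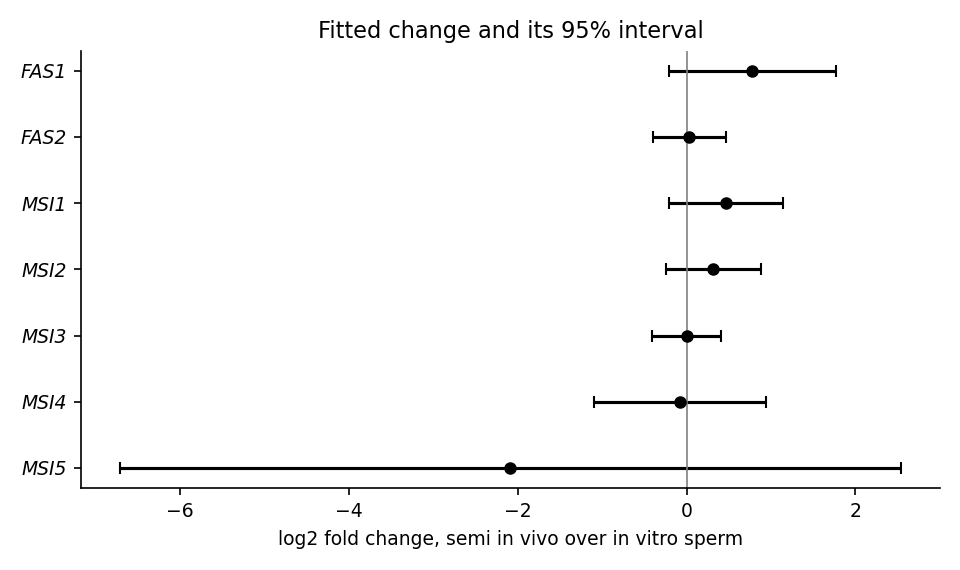
Fitted log2 fold change of semi in vivo over in vitro sperm for the 7 genes, with points at the estimate and bars for its 95% interval. Every interval spans 0; those of MSI3 and FAS2 are narrowest, at -0.40 to 0.40 and -0.40 to 0.47, and that of MSI5 is widest, at -6.71 to 2.54.

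The balance among related genes was compared as a share of counts within each library, which no scaling between libraries can move. MSI3 made up 62.9%, 62.5% and 59.6% of the counts of MSI1, MSI2 and MSI3 together in semi in vivo sperm, and 72.1%, 64.3% and 66.4% in in vitro sperm. Every in vitro library lay above every semi in vivo library, and the means were 61.6% ± 1.81 in semi in vivo sperm and 67.6% ± 4.07 in in vitro sperm (SD, n = 3 each). The difference of -5.96 percentage points had an exact two-sided permutation p of 0.1, the smallest that 3 against 3 libraries can give, so the threshold of 0.05 could not be passed. The nearest libraries had overlapping counting intervals: the exact 95% binomial interval was 60.9% to 64.8% in semi in vivo library 1 and 62.9% to 65.7% in in vitro library 2. Without in vitro sperm library 1 the difference was -3.68 points.

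FAS1 made up 6.15%, 13.2% and 17.9% of the summed FAS1 and FAS2 counts in semi in vivo sperm, and 9.51%, 7.51% and 6.25% in in vitro sperm. The groups overlapped, with means of 12.4% ± 5.89 in semi in vivo sperm and 7.76% ± 1.64 in in vitro sperm (SD, n = 3 each; difference 4.63 points, exact two-sided permutation p = 0.4). Within semi in vivo sperm the exact 95% intervals of libraries 1 (4.88% to 7.63%) and 3 (16.0% to 19.8%) were far apart. The spread of FAS1 there thus exceeds the counting error of reads, while that of the molecules before PCR was not measured. Without semi in vivo library 3 the difference was 1.89 points. In nuclei the share could not be followed, since nucleus library 1 held 63 FAS1 and 0 FAS2 counts, library 2 held 0 FAS1 and 145 FAS2 counts, and library 3 had neither.

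**Figure D4:**
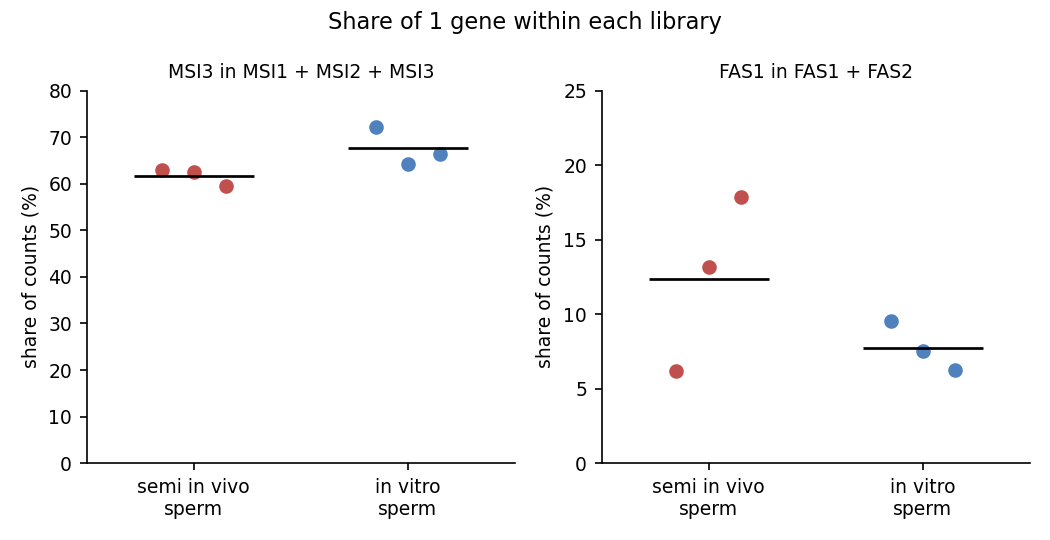
Share of counts in percent (linear axis from 0) of MSI3 within MSI1, MSI2 and MSI3, and of FAS1 within FAS1 and FAS2, for both kinds of sperm (semi in vivo left, in vitro right), with points for libraries 1 to 3 and lines at the means. The MSI3 share lies between 59.6% and 62.9% in semi in vivo sperm, below all in vitro libraries, while the FAS1 shares overlap.

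The promoters were read because FAS1 is a known target of E2F factors in Arabidopsis, and because the family's levels in sperm ran from MSI3 at the top to FAS1 near the bottom. The 250 bases before the RefSeq start of each gene were searched on both strands for 4 E2F-type motifs, TTTCCCGC, TTTGCCGC, TTTCGCGC and TTTGGCGC. At least 1 of them was present in 387 of 27443 promoters (1.41%) and in 2 of the 7 here, FAS1 and FAS2. The single motifs were in 0.619% (TTTCCCGC), 0.277% (TTTGCCGC), 0.186% (TTTCGCGC) and 0.361% (TTTGGCGC) of promoters. In FAS1, TTTCCCGC lay on the opposite strand at 67 to 60 bases and TTTGGCGC on the opposite strand at 128 to 121 bases before the start. In FAS2, TTTCGCGC lay at 10 to 3 bases before the start, and none of the matches overlapped another. AACCGC and AACCGT, of the kind bound by the sperm MYB factor DUO1, were in 10.4% of promoters and in 0 of these 7. The windows of MSI1, MSI2 and MSI5 overlapped a neighbouring gene (AT5G58220, AT2G16790 and AT4G29735 in that order). The promoters of the 2 larger CAF-1 subunits are shown with their matches in capitals, and that of MSI3, the most abundant member, which held none of these letters. They lie at chr1:24324092-24324341 on the minus strand (FAS1), chr5:25832915-25833164 on the plus strand (FAS2) and chr4:16684929-16685178 on the minus strand (MSI3).
FAS1: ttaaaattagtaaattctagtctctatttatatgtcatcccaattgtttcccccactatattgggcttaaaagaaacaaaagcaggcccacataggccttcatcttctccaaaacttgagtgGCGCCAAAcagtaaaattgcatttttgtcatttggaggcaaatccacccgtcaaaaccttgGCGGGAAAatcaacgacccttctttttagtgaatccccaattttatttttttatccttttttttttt
FAS2: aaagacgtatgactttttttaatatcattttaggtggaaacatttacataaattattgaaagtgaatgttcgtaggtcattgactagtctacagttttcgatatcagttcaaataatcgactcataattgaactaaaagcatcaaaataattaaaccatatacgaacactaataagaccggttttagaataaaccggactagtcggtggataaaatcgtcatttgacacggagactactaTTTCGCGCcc
MSI3: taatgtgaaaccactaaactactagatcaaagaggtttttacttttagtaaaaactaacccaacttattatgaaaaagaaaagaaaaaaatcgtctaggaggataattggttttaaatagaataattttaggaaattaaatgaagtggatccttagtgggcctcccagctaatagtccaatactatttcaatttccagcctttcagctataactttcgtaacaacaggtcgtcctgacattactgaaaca

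A match in these windows is a description of letters and not of a bound site. The gene models behind them lie at chr1:24319396-24324091 with 11 coding exons for FAS1, chr5:25833165-25836400 with 12 for FAS2, chr5:23556012-23558245 with 6 for MSI1, chr2:7281374-7283686 with 6 for MSI2 and chr4:16682580-16684928 with 6 for MSI3. MSI4 lies at chr2:8455756-8459642 and MSI5 at chr4:14558927-14562601, each with 15 coding exons. Coding exons were counted in the transcript with the longest coding sequence.

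Genes whose pattern was most like that of each member were ranked by Pearson's r of log2(CPM + 1) over the 9 libraries, among 6275 genes with a mean of at least 10 CPM in 1 group. The points share their libraries and depth and fall into sperm and nuclei, so r is high for many genes and is given as a description. For MSI3 the closest were AT1G43860 (r = 0.9997), the importin alpha gene IMPA-5 (AT5G49310, r = 0.9995) and the F-box gene AT5G44940 (r = 0.9995), and 1704 genes reached r = 0.95. IMPA-5 averaged 49.7 CPM in semi in vivo sperm, 52.6 CPM in in vitro sperm and 0 CPM in nuclei. For FAS2 the closest were AT2G42770, the farnesyltransferase gene FTA and VAMP714, with 1270 genes at r = 0.95 or more. FAS1 had 2 genes at r = 0.95 or more, led by POLD4, a subunit of DNA polymerase delta (r = 0.980), and MSI1 had 1404. MSI2 and MSI4 had 692 and 979 such genes, led by AT3G60980 (r = 0.998) and the metal transporter gene ZIP6 (r = 0.993), while MSI5 had none, led by AT3G52360 (r = 0.816).

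Partner genes were taken from 10 lists of proteins known to work with or beside these 7. Of the 63 list genes tested between semi in vivo sperm and in vitro sperm, 0 were called by edgeR and 0 by DESeq2. An unadjusted edgeR p below 0.05 was found for 3 (4.76%), against 8.05% of all genes. Between in vitro sperm and vegetative nuclei, with the same background of 30.7% higher and 14.3% lower, RBR1, which MSI1 binds, and the E2F, DP and DEL factors that act with RBR1 or on E2F sites numbered 7 higher, 0 lower and 1 not passing of 8 tested, with a median log2 fold change of 5.63 against 1.70 for all genes. RBR1, the retinoblastoma protein, had 167, 203 and 137 CPM in semi in vivo sperm, 165, 172 and 186 CPM in in vitro sperm and 4.87, 9.16 and 3.73 CPM in nuclei, a log2 fold change of 5.86 for in vitro sperm over nuclei (SE 0.63, edgeR adjusted p = 0.000925). The repressors DEL1 (8.29, SE 1.51) and DEL3 (3.58, SE 0.56) were also higher in log2, and E2FA, with no nucleus counts, was at least 164-fold higher in in vitro sperm. The count of 7 was 4 when any 1 in vitro sperm library was left out or when TMM factors came from unfiltered genes, and 5 without in vitro library 2 and nucleus library 1, a choice made after seeing the data. Of the clamp that recruits CAF-1, PCNA1 had no nucleus counts and was at least 128-fold higher in in vitro sperm (edgeR adjusted p = 0.00681). PCNA2 did not pass (log2 fold change 4.64, edgeR adjusted p = 0.111) but was called by DESeq2 and by edgeR without nucleus library 2. E2FA, which is among the 7, and PCNA1 passed the expression filter through their sperm counts alone, so only a higher call was possible for them. DEL1 and PCNA2, and DPB and E2FC, also higher and named after their values were seen, each had 0 counts in at least 1 nucleus library. They could not pass that filter through nuclei alone, which favoured a higher call for them.

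Other H3-H4 chaperones had 6 higher, 0 lower and 3 not passing of 9 tested (median 2.95 in log2). TSK, higher and named after its values were seen, had 3 counts in all nuclei. It passed the expression filter through its sperm counts alone, so only a higher call was possible. ASF1B, with 0 counts in nucleus library 1, could not pass the filter through nuclei alone, which favoured a higher call. ATRX, which places the replacement histone H3.3, had 2643, 2715 and 2409 CPM in semi in vivo sperm, 2366, 2467 and 2035 CPM in in vitro sperm and 59.4, 84.6 and 21.9 CPM in nuclei, a log2 fold change of 6.32 (SE 0.68, edgeR adjusted p = 0.00101). The ubinuclein gene UBN1 (4.68) and the ASF1 genes, whose proteins hand H3-H4 to CAF-1, were higher too, ASF1A by 2.63 and ASF1B by 5.58 in log2 (edgeR adjusted p = 0.0142 and 0.0284). ASF1B lost its call under 5 alternatives, among them without in vitro library 1 or 2 or nucleus library 2, and ASF1A under 5, among them without nucleus library 3. The count of 6 was 3 without in vitro library 1 or 2, without nucleus library 3, without both in vitro library 2 and nucleus library 1, or with no expression filter, and 2 when unfiltered genes gave the TMM factors.

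Histone H4, which MSI1 binds and CAF-1 delivers with H3, comes from 8 genes in the list. All 8 H4 genes encode the same protein of 103 residues, and of 7 tested 3 were higher, 0 lower and 4 did not pass (median 3.101 in log2). The background was again 30.7% higher and 14.3% lower. Over the alternatives the number higher ran from 2 to 5. It was 5 of 8 tested when semi in vivo sperm was set against nuclei and with all 9 libraries in 1 fit. AT5G59690 had 40.8, 32.5 and 39.1 CPM in semi in vivo sperm, 34.3, 20.7 and 52.1 CPM in in vitro sperm and 0, 0.313 and 0.512 CPM in nuclei (log2 fold change 7.95, SE 1.302, edgeR adjusted p = 0.00432). At these nucleus levels it could not pass the expression filter through nuclei alone, which favoured a higher call. AT3G45930 was at least 76.6-fold higher in in vitro sperm than in nuclei. It had no nucleus counts and passed the expression filter through its sperm counts alone, so only a higher call was possible. AT3G53730 was higher by 3.101 in log2, a call lost without in vitro library 1 or 3 or nucleus library 2 or 3. Of 5 genes for the replication-coupled histone H3.1, HTR1 alone passed the expression filter, which it did through its sperm counts, and it was higher (edgeR adjusted p = 0.00888), with 3.50, 0.535 and 1.67 CPM in semi in vivo sperm, 1.80, 2.05 and 6.92 CPM in in vitro sperm and 1 count in all nuclei. HTR2, not tested and named after its values were seen, lay the other way, with 0, 0.195 and 0 CPM in semi in vivo sperm, 0, 0 and 0.191 CPM in in vitro sperm and 5.01, 0.171 and 0.585 CPM in nuclei. Reads shared between copies of H3 or H4 genes were not examined, so single values are uncertain.

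Partners of MSI1 and MSI4 in histone deacetylase complexes had 6 higher, 0 lower and 5 not passing of 11 tested (median 4.02 in log2). The count of 6 ran from 4 to 7 over the alternatives. The corepressors SNL1 (log2 fold change 6.44, SE 0.55, edgeR adjusted p = 0.000601), SNL2 (4.02) and SNL5 (3.39) were among those higher. HDA6, a deacetylase that binds FVE, had 11.7, 16.3 and 8.43 CPM in semi in vivo sperm, 8.36, 13.4 and 10.3 CPM in in vitro sperm and 1 count in all nuclei. SNL4 and SAP18, also higher, were named after their values were seen. HDA6 and SNL4, which also had 1 count in all nuclei, passed the expression filter through sperm alone, so only a higher call was possible. SAP18, with 0 counts in nucleus library 1, could not pass it through nuclei alone, which favoured a higher call. CUL4, the scaffold of a ubiquitin ligase that MSI4 joins, was higher by 4.45 in log2 (SE 0.73, edgeR adjusted p = 0.00395), and DDB1A and DDB1B did not pass (edgeR adjusted p = 0.0986 and 0.0503). These non-calls depended on the setting: all 3 genes were called higher by DESeq2, with all 9 libraries in 1 fit and with a replicate block, DDB1A also without nucleus library 3 and DDB1B without nucleus library 2.

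PRC2, the other complex of MSI1, and its associated proteins had 1 gene higher, 2 lower and 7 not passing of 10 tested. Their median was 0.26 in log2, which turned to -0.18 with upper-quartile scaling and to -1.10 when TMM factors came from unfiltered genes. With 1 library left out it ran from -0.81 without nucleus library 1 to 2.35 without nucleus library 2, where 3 genes were higher, as they were by DESeq2, and 0 were higher with no expression filter. It was -0.67 without in vitro library 2. VIN3 and VRN5, proteins of the vernalization response that associate with PRC2, were lower in in vitro sperm, with log2 fold changes of -5.61 for VIN3 and -3.12 for VRN5 (edgeR adjusted p = 0.0230 and 0.0179), and their relative VEL1 was higher by 2.57. VIN3 lost its call without in vitro library 3, and VRN5 without in vitro library 1 or 3. With 0, 0.716 and 0.0818 CPM in in vitro sperm, VIN3 could not pass the expression filter through sperm alone. This favoured a lower call for VIN3. VRN2, a polycomb protein and the next gene by adjusted p, did not pass (log2 fold change 3.85, SE 1.53, edgeR adjusted p = 0.0791). It had at least 10.4 CPM in each in vitro sperm library and at most 4.94 CPM in a nucleus library. Over its alternatives its log2 fold change ran from 2.45 to 4.84, with a lowest adjusted p of 0.0111. FIE, the WD40 partner of MSI1 inside PRC2 and named after its values were seen, had 4.21, 1.68 and 4.59 CPM in semi in vivo sperm, 1.59, 5.90 and 2.67 CPM in in vitro sperm and 0, 2.47 and 0.0732 CPM in nuclei, which overlap. In the same in vitro libraries MSI1 had 10.0, 13.3 and 6.46 CPM.

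**Figure D5:**
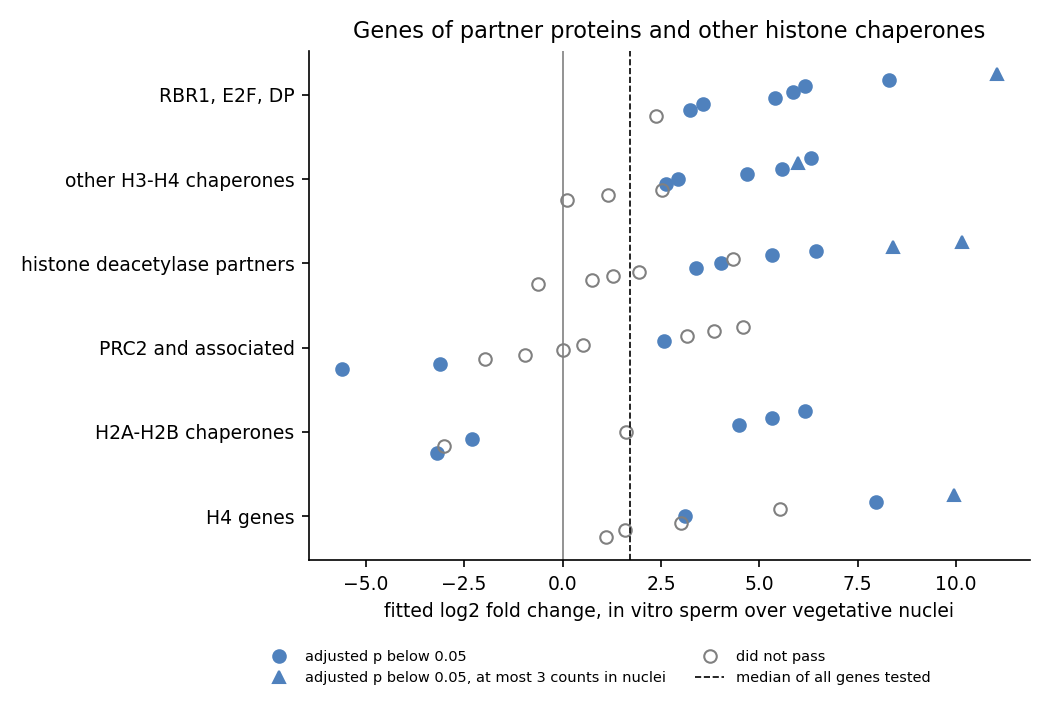
Fitted log2 fold change of in vitro sperm over vegetative nuclei for the genes tested in 6 lists of partners and histone chaperones, with filled symbols for an adjusted p below 0.05 (triangles where nuclei had at most 3 counts), open circles for genes that did not pass and a dashed line at the median of all genes, 1.70. The RBR1, E2F and DP list lies to the right of the line with a median of 5.63, while PRC2 genes lie on both sides of 0 with a median of 0.26.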

How the data were processed

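The table that the authors deposited holds raw counts of genes in 9 libraries. Per the submitters' processing notes, the authors used Trim Galore, HISAT2, featureCounts and TAIR10; the sources used here give no versions, strand setting or handling of multi-mapping reads. Of 32833 genes, 2874 had no counts, 32548 (99.13%) were found in RefSeq, and 0 columns were left unmapped.

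CPM were counts divided by the library total and multiplied by 1000000. Each comparison was fitted on its own 6 libraries with edgeR 4.0.16 under R 4.3.3 (filterByExpr minimum 10, TMM, robust quasi-likelihood, Benjamini-Hochberg over all genes, threshold 0.05); DESeq2 1.42.0 was an alternative, as were RLE and upper-quartile scaling, TMM factors from unfiltered genes, no filter, 5 CPM in 3 libraries, the 10 most abundant genes left out, all 9 libraries in 1 fit, a replicate block and each library left out. The procedure was tested on simulated counts. Standard errors were derived from the F statistics. Shares were compared by exact permutation tests (scipy 1.17.1). Sequences came from TAIR10.1 (RefSeq), read with Biopython 1.88; proteins were translated from its coding sequences. Libraries of 1 group differed by a chi-square of 25.3 to 369.4 per gene, so none was a duplicate. The members and lists were chosen with earlier results of these data known. Named genes are the 7 members, up to 4 genes per list by smallest adjusted p, the 3 genes most like each member, and others said to be chosen later.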

Additional observations from a re-analysis of the deposited data

How the results depend on the processing

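Of the 7 genes, 0 were called between semi in vivo and in vitro sperm under every alternative run (4 of 7 were tested with the filter of 5 CPM in 3 libraries). Over its alternatives the log2 fold change of MSI3 ran from -0.18 to 0.12, of FAS2 from -0.16 to 0.10, of MSI4 from -0.28 to 0.25, of MSI2 from 0.08 to 0.62, of MSI1 from 0.25 to 0.67, of FAS1 from 0.32 to 1.13 and of MSI5 from -3.38 to -1.20, with a lowest adjusted p of 0.380 (MSI2). Between semi in vivo and in vitro sperm, calls over all genes numbered 150 with no filter on expression, 165 with the 5 CPM one, 340 by DESeq2 (174 higher, 166 lower), 0 with all 9 libraries in 1 fit (996 at an unadjusted p below 0.05) and 51 to 123 with 1 library left out, lowest without in vitro library 1. It was 0 without in vitro library 2 and semi in vivo library 3 (1019 at an unadjusted p below 0.05), a choice made after seeing the data. The cause was not tested. The data did not settle whether replicate numbers pair the samples. Same-numbered sperm libraries had deviations correlated at -0.00642, 0.0568 and 0.162, against -0.213 to 0.183 for other numbers. For in vitro sperm and nuclei the same-numbered values were 0.0276, 0.0669 and 0.0103, against -0.0904 to 0.062. Some libraries correlated best with their own number and others did not, and correlations this weak cannot decide it. A replicate block gave 223 calls between sperm groups and 5790 between sperm and nuclei. Between in vitro sperm and nuclei 6320 genes were called, and 3552 to 5854 with 1 library left out. The split of 4314 higher and 2006 lower became 3401 and 2477 when unfiltered genes gave the TMM factors, 2433 and 2352 without a filter, and 2307 and 2536 without in vitro library 2 and nucleus library 1. The MSI3 share difference ran from -7.60 to -3.68 points and the FAS1 share difference from 1.89 to 7.75 points with 1 library left out, with no change of sign. In depth, nucleus library 1 was the shallowest, and a count of 0 there allows up to 0.218 CPM.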

Other observations

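Chaperones of the other histone pair, H2A-H2B, were divided between in vitro sperm and vegetative nuclei: of 7 tested, 3 were higher, 2 lower and 2 did not pass, with a median log2 fold change of 1.62 against 1.70 for all genes. The shares over all genes tested were 30.7% higher and 14.3% lower. The sign of the median turned with single libraries, to -0.11 without in vitro library 2, -0.09 without nucleus library 1 and -1.36 without both, against 4.57 without nucleus library 2. The count of 2 lower was 1 without any 1 in vitro library or without nucleus library 2 or 3, while the count of higher genes was 3 in each of these fits. SPT16 and SSRP1, the subunits of the FACT complex, were higher in sperm by 4.48 (SE 0.53, edgeR adjusted p = 0.00121) and 5.32 (SE 0.63, edgeR adjusted p = 0.00131), and NRP2, a NAP1-related protein, by 6.17 (SE 0.79, edgeR adjusted p = 0.00166). NAP1;2 was lower in sperm, with 12.2, 21.1 and 14.9 CPM in in vitro sperm against 315, 290 and 263 CPM in nuclei (log2 fold change -3.19, SE 0.57, edgeR adjusted p = 0.00532). None of these genes was called between semi in vivo and in vitro sperm by edgeR.

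Genes of the autonomous flowering pathway, in which MSI4 acts, had 2 higher, 0 lower and 3 not passing of 5 tested (median 2.47). Over all genes tested, 30.7% were higher and 14.3% lower. FPA, an RNA-binding protein, was higher by 4.45 (SE 0.51, edgeR adjusted p = 0.00112). FLC, the flowering repressor that MSI4 is known to silence, had 0.458, 0.438 and 1.19 CPM in semi in vivo sperm, 1.17, 1.51 and 0.463 CPM in in vitro sperm and 0 CPM in every nucleus library. In vitro sperm was at least 26.6-fold higher (edgeR adjusted p = 0.0216, a call lost when in vitro library 1 or 2 or any 1 nucleus library was left out). FLC passed the expression filter through its sperm counts alone, so only a higher call was possible for it. FY and FCA did not pass (log2 fold changes 2.47 and -1.52, edgeR adjusted p = 0.279 and 0.343). FCA had 8.36, 8.76 and 6.30 CPM in in vitro sperm and 1.31, 89.6 and 50.9 CPM in nuclei, and without nucleus library 1 it was lower (log2 fold change -2.91, edgeR adjusted p = 0.00806; adjusted p 0.00806 to 0.748 over its alternatives), with 1 gene of the list higher and 2 lower in that fit.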
